A study of Rattus norvegicus with 31 samples.

Results

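Nuclear receptors are transcription factors, many of them switched by a small fat-soluble ligand such as a steroid, thyroid hormone, retinoic acid, an oxysterol or a fatty acid. The family was read here in rat testes whose hormones had been withdrawn or partly replaced. Members were the genes whose symbol in the platform annotation is of the systematic form (Nr0b1 to Nr5a2) or one of 21 further receptor names, which gave 40 genes with 71 probe sets among 14217 named genes on the array. Each gene was represented by its probe set with the highest mean over the 31 arrays. The rule does not take every receptor: those with other symbols were not analysed here.

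All 31 arrays came from LBNF1 rats, 25 to 27 weeks old, whose lower abdomen had been irradiated with 6 Gy, so the controls share the radiation. In the sham group (14 arrays) no hormone treatment followed. In the ablation group (11 arrays) the rats received a GnRH antagonist, which shuts off the pituitary gonadotropins, and the androgen receptor antagonist flutamide. In the estradiol group (6 arrays) estradiol was added to both, and its label also speaks of FSH supplementation. The estradiol arrays were deposited later than the other 25, so treatment and deposit cannot be told apart in any comparison with them. All sham titles say irradiated, but 10 of the 14 descriptions call the testes control and 4 call them irradiated. The values are MAS5 signals on a logarithmic scale, read as log2, and the number of arrays limits their precision. The labels call every array a biological replicate without naming the animal.

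In the testis, Leydig cells make testosterone under Nr5a1 (steroidogenic factor 1), and Sertoli cells and spermatogonia respond to retinoic acid. Thyroid hormone limits how long Sertoli cells divide, and their division was not measured in these adult rats. The Rev-erb receptors Nr1d1 and Nr1d2 repress genes as a part of the circadian clock. Retinoid X receptors are the shared partners of the retinoic acid, thyroid hormone, vitamin D, oxysterol and fatty acid receptors.

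Of the 40 receptor genes, 25 lay above the 40th percentile of their own array in at least 6 arrays and were tested, and 21 of them did so in all 31 arrays. A further 6 genes were above it in no array and the other 9 only in some, none in more than 5. Each array had between 23 and 27 receptors above its 40th percentile, with medians of 25 in sham, 25 in ablation and 25.5 in estradiol arrays. The nearest genes on either side of the filter were Nr4a3, above the percentile in 22 arrays, and Rxra, in 5. The percentile lay between -1.93 and -1.75 (log2) and is a rank within an array, so a gene below it may still be transcribed. Beside the 25 of 40 receptor genes, 11379 of all 14217 named genes were tested, a larger share.

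By subfamily, tested genes were 11 of 16 in NR1, 5 of 9 in NR2, 4 of 8 in NR3, 2 of 3 in NR4, 1 of 2 in NR5 and 2 of 2 in NR0. All 3 retinoic acid receptors, both thyroid hormone receptors and both Rev-erb receptors were tested. Of the peroxisome proliferator-activated receptors, which sense fatty acids, Ppard was above the percentile in 31 arrays, Pparg in 3 ablation arrays and Ppara in none. Of the oxysterol and bile acid receptors, Nr1h2 was above it in 31 arrays and Nr1h3 in 26, while the bile acid receptor Nr1h4 was above it in none. The vitamin D receptor Vdr was above it in 1 ablation and 2 estradiol arrays.

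**Figure D1:**
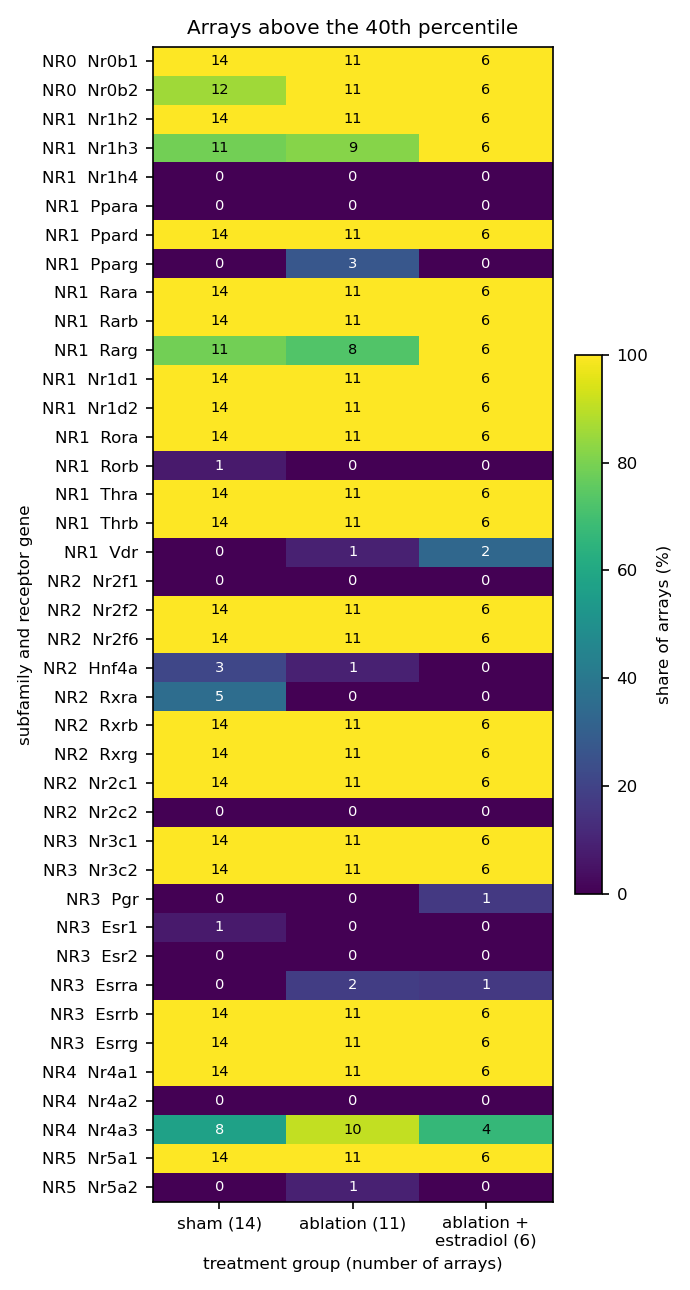
Number of arrays in which each of the 40 receptor genes lay above the 40th percentile of the array, by treatment group; colour gives the share of the group's arrays in percent. Most genes were above it in every array or in hardly any, and Nr4a3 (8 of 14 sham, 10 of 11 ablation and 4 of 6 estradiol arrays) was the tested gene with the fewest.

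The receptors for estradiol itself were low on these arrays. Esr1, the estrogen receptor alpha, was above the 40th percentile in 1 of 31 arrays, a sham array. Its signals ran from -6.27 over a median of -2.79 to -1.19 in sham, from -5.17 over -4.37 to -3.02 in ablation and from -4.95 over -4.22 to -2.38 in estradiol arrays. The ranges overlapped widely. Esr2, the estrogen receptor beta, was above the percentile in no array. Its signals ran from -7.90 over -7.27 to -4.76 in sham, from -7.89 over -5.52 to -4.41 in ablation and from -7.73 over -7.00 to -6.36 in estradiol arrays. The progesterone receptor Pgr, an estrogen-induced gene elsewhere, was above the percentile in 1 estradiol array, with means of -2.43 ± 0.46 (SD, n = 14) in sham, -2.29 ± 0.47 (n = 11) in ablation and -2.32 ± 0.35 (n = 6) in estradiol arrays. None of these genes was tested, and each is measured by 1 probe set.

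Other untested genes were the estrogen-related receptor Esrra, the liver factor Hnf4a, the orphan receptors Nr2c2, Nr2f1, Nr4a2, Nr5a2 and Rorb, and the retinoid X receptor Rxra. Rxra was above the percentile in 5 of 14 sham arrays and in none of the others. Its signals ran from -3.16 over a median of -2.20 to -1.02 in sham, from -4.00 over -3.34 to -1.94 in ablation and from -4.17 over -2.92 to -1.93 in estradiol arrays, so the sham arrays reached higher but the groups overlapped. When all 31042 probe sets were tested without a filter, Rxra differed between ablation and sham (-1.04, limma adjusted p = 0.0104), and so did Esr2 (1.14, adjusted p = 0.0412). Of the 25 arrays compared, Rxra was above the percentile in 5 and Esr2 in 0.

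Ablation against sham asks how the receptors stood once gonadotropin and androgen signals were withdrawn. Of the 25 tested receptors, 4 rose (Nr1d1, Nr4a3, Nr1d2 and Thrb) and 2 fell (Rxrg and Ppard) at an adjusted p under 0.05 with limma. That is 24% of the receptors, beside 22.1% of all 11379 tested genes, so the share was near the background. The differences were small. They ran from -0.47 to 0.61 on the log2 scale with a median of 0.02 beside 0.00045 over all genes tested. The largest was 1.53-fold, and no receptor separated the groups completely (0 of 25, beside 2.43% of all tested genes).

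Among the receptors that rose, Nr1d1 (Rev-erb alpha, probe set 1370816_at) had the largest difference. Its log2 signal ran from -0.02 over a median of 0.56 to 1.03 in sham arrays and from 0.68 over 1.22 to 1.42 in ablation arrays. All 11 ablation arrays lay above the sham mean and 10 of them above every sham array. The difference was 0.61 ± 0.10 (SE, 11 against 14 arrays), or 1.53-fold, with a limma adjusted p of 2.15e-05. Its relative Nr1d2 (Rev-erb beta, 1390430_at) ran from 1.27 over 1.87 to 2.10 in sham and from 1.63 over 2.46 to 2.64 in ablation arrays. Of the ablation arrays, 9 of 11 lay above every sham array and the other 2 lay below the sham mean. The difference was 0.43 ± 0.11, or 1.35-fold (adjusted p = 0.00377). A second Nr1d2 probe set gave 0.47 ± 0.11 (adjusted p = 0.00182). The third, above the 40th percentile in only 10 arrays, gave -0.49 ± 0.20 (adjusted p = 0.0858), and with the mean of the 3 probe sets the difference was 0.14 and was not called (adjusted p = 0.427).

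The start regions of this pair are printed because both genes were called higher in ablated testes. Whether the pair varied together from array to array was not tested. They come from RefSeq (build GRCr8), 250 bases before to 50 bases after an annotated start, and 35 of the 40 receptor genes have at least 1 such region in the table. Capitals mark an E-box (CACGTG), the element that clock activators bind, or a nuclear receptor half-site (AGGTCA or its reverse complement). A D-box (TTATGTAA) and a cAMP response element (TGACGTCA) were searched as well, on both strands, and none of these motifs overlap here. Nr1d1 has 2 annotated starts, at chr10:84229405-84229704 and chr10:84231763-84232062 on the minus strand, and Nr1d2 has 1, at chr15:9954784-9955083 on the plus strand.
Nr1d1, inner start: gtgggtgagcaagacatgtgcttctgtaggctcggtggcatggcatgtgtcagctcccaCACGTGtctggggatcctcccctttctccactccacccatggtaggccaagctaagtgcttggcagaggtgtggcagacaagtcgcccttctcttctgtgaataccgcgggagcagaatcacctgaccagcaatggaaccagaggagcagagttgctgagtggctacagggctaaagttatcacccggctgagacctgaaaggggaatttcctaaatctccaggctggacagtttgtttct
Nr1d1, outer start: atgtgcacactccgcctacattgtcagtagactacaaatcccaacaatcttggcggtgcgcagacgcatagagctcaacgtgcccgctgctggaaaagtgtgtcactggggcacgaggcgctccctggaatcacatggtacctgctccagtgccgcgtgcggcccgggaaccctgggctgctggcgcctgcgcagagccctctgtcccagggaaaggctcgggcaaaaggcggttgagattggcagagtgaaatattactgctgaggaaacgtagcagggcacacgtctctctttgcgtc
Nr1d2: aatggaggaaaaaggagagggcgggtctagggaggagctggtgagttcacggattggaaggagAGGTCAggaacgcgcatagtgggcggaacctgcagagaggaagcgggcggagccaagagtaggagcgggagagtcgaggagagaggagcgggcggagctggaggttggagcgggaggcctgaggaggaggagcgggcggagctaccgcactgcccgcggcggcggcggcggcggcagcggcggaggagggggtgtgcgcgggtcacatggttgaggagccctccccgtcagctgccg
The inner Nr1d1 region holds 1 E-box, 191 bases before the start, and the outer region holds none of the 4 motifs. The Nr1d2 region holds 1 half-site, 187 bases before the start. Among all 33469 such regions, 6.42% hold the E-box, 16.2% the half-site, 0.893% the D-box and 1.83% the cAMP response element. Of the 35 receptor genes with a region, 4 hold an E-box (Esr2, Nr0b2, Nr1d1 and Nr5a1). A half-site stands in 5 (Esrrg, Nr0b1, Nr1d2, Nr5a2 and Rarg). These counts are per gene, over any of its regions, while the shares above are per region, so the 2 are not on the same scale. A match shows only that these letters occur.

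Thrb (1394456_at), a thyroid hormone receptor, ran from -0.17 over a median of 0.11 to 0.35 in sham and from 0.20 over 0.51 to 0.73 in ablation arrays. All 11 ablation arrays lay above the sham mean and 9 above every sham array. The difference was 0.40 ± 0.08, or 1.32-fold (adjusted p = 0.000446). A second tested Thrb probe set gave 0.23 ± 0.10 and was not called (adjusted p = 0.113). In RefSeq, Thrb lies between Rarb, with no protein-coding gene between them, and Nr1d2, with 1 between. Rarb, a retinoic acid receptor, had a difference of 0.02 ± 0.10 (adjusted p = 0.926). On another chromosome Nr1d1 overlaps Thra, the other thyroid hormone receptor, on the opposite strand. Thra ran from -0.21 over 0.48 to 1.23 in sham and from -0.06 over 0.26 to 0.82 in ablation arrays, with a difference of -0.09 ± 0.14 (adjusted p = 0.713). Whether Thrb and Thra differed in their response was not tested.

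Nr4a3 (1369217_at), an orphan receptor that neural and hormonal signals induce quickly, ran from -2.56 over a median of -1.75 to -1.13 in sham and from -1.90 over -1.25 to -0.94 in ablation arrays. It was above the 40th percentile in 8 of 14 sham and 10 of 11 ablation arrays, and the difference was 0.49 ± 0.15, or 1.41-fold (adjusted p = 0.0196). A second tested probe set gave 0.11 ± 0.16 (adjusted p = 0.692), and the mean of both was not called (0.30, adjusted p = 0.0652). Without the 6 arrays in which the spermatid genes Prm1 and Tnp1 both lay above the percentile, the Nr4a3 difference was 0.42 and was not called (adjusted p = 0.106). Its relative Nr4a1, which luteinizing hormone induces in Leydig cells, had means of 0.12 ± 0.33 (SD, n = 14) in sham and 0.29 ± 0.47 (n = 11) in ablation arrays, a difference of 0.17 ± 0.18 (SE, adjusted p = 0.572).

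The receptors that fell are of kinds that pair with each other on DNA, a retinoid X receptor and a fatty acid receptor. Rxrg (1370981_at), the partner receptor RXR gamma, ran from -0.42 over a median of -0.13 to 0.15 in sham and from -1.61 over -0.49 to -0.32 in ablation arrays. All 11 ablation arrays lay below the sham mean and 7 below every sham array. The difference was -0.47 ± 0.11, or 1.39-fold lower (adjusted p = 0.00146). A second Rxrg probe set, above the percentile in all 31 arrays, gave 0.15 ± 0.13 (adjusted p = 0.446), of opposite sign, and the mean of both was not called (-0.16, adjusted p = 0.191). Ppard (1374914_at), the widely expressed fatty acid receptor PPAR delta, ran from -0.04 over 0.54 to 0.90 in sham and from -0.26 over 0.12 to 0.32 in ablation arrays. All 11 ablation arrays lay below the sham mean. The difference was -0.40 ± 0.09, or 1.32-fold lower (adjusted p = 0.00117). Rxrb, another partner receptor, had a difference of 0.16 ± 0.10 (adjusted p = 0.265).

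When only the 4 sham arrays described as irradiated served as controls, 2 receptors were called in place of 6. Nr1d1 was still called (0.57, adjusted p = 0.00365), and Nr0b1, the repressor DAX-1, was called as well (-0.34, adjusted p = 0.0271). The other 5 kept their sign without a call: Thrb 0.33 (adjusted p = 0.0735), Ppard -0.26 (adjusted p = 0.161), Rxrg -0.38 (adjusted p = 0.164), Nr1d2 0.33 (adjusted p = 0.206) and Nr4a3 0.43 (adjusted p = 0.218). With only the 10 sham arrays described as control, 6 receptors were called, 4 higher and 2 lower. The share of all genes called in these fits was not computed. Cell type markers differed between the groups too. The summed signal of 7 Leydig cell markers had a median of 6.65 in sham (5.89 to 6.95) and 5.74 in ablation arrays (5.61 to 6.01) on the log2 scale. The Leydig markers did not all move alike. With ablation 5 of the 7 fell and 2 rose (Hsd3b1 0.39 and Lhcgr 0.35) at a limma adjusted p under 0.05. The summed signal of 7 macrophage markers was 4.13 (3.69 to 4.30) and 3.39 (3.16 to 3.64). That of 6 peritubular myoid markers was 4.14 (3.53 to 4.54) and 3.52 (3.16 to 3.94). For 6 Sertoli cell markers the medians were 6.75 (5.57 to 7.26) and 6.93 (6.70 to 7.14), and for 5 spermatogonial markers 0.74 (0.11 to 1.51) and 1.22 (0.80 to 1.34). For 8 meiotic and spermatid markers they were 0.42 (-0.20 to 6.41) and 1.21 (0.25 to 4.63). Every marker measured in these lists was above the 40th percentile in at least 1 array. The part of these shifts in the receptor differences was not tested, and in whole testes fewer cells of a type and less RNA per cell cannot be told apart.

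**Figure D2:**
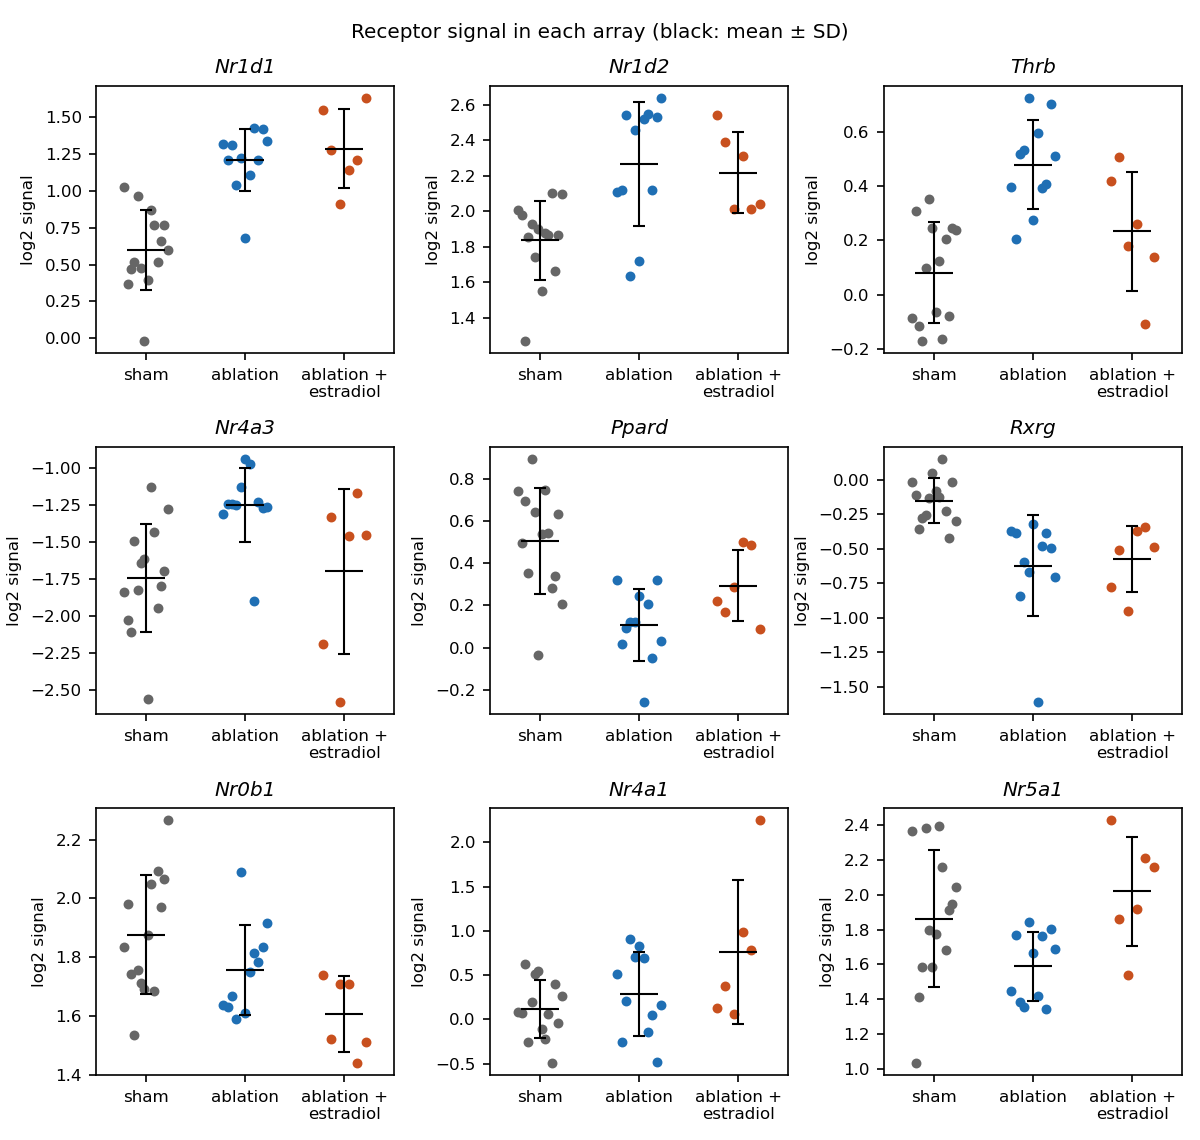
Signal of 9 receptors (log2) in each sham, ablation and ablation plus estradiol array, with the mean and SD of the group in black. Nr1d1 was above every sham array in 10 of 11 ablation arrays, and 1 estradiol array stands at 2.25 for Nr4a1.

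The receptors that govern Leydig and Sertoli cell identity were not called. Nr5a1 (1393286_at) ran from 1.03 over a median of 1.85 to 2.40 in sham and from 1.35 over 1.67 to 1.85 in ablation arrays. Every ablation array lay below the sham mean and within the sham range. The difference was -0.27 ± 0.12 (adjusted p = 0.121, 95% interval -0.52 to -0.02). It was called without sham array 2 (-0.34, adjusted p = 0.0291) and with array weights (-0.35, adjusted p = 0.0204). Nr0b1, which holds Nr5a1 in check, ran from 1.53 over 1.86 to 2.27 in sham and from 1.59 over 1.75 to 2.09 in ablation arrays, a difference of -0.12 ± 0.08 (adjusted p = 0.303). Nr2f2, the stromal and Leydig progenitor factor COUP-TFII, ran from 2.73 over 3.35 to 3.87 in sham and from 2.64 over 3.20 to 3.46 in ablation arrays. Its difference was -0.26 ± 0.11 (adjusted p = 0.112). It was called without sham array 3 (-0.31, adjusted p = 0.042) and after quantile normalization (-0.22, adjusted p = 0.0485). Other tested Nr2f2 probe sets gave 0.03 ± 0.16 and -0.03 ± 0.14 (adjusted p = 0.912 and 0.925).

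The glucocorticoid receptor Nr3c1 (1368221_at) ran from 0.70 over a median of 1.35 to 1.64 in sham, from 0.97 over 1.33 to 1.46 in ablation and from 1.19 over 1.36 to 1.53 in estradiol arrays. The groups overlapped throughout. Ablation differed from sham by -0.02 ± 0.09 (adjusted p = 0.916, 95% interval -0.20 to 0.16). The mineralocorticoid receptor Nr3c2 had a difference of 0.22 ± 0.10 (adjusted p = 0.111), and was called without ablation array 2 (0.29, adjusted p = 0.023), with array weights (0.26, adjusted p = 0.0321) and after quantile normalization (0.25, adjusted p = 0.0316). The estrogen-related receptors Esrrb and Esrrg, which act without a known natural hormone on energy metabolism, differed by 0.06 ± 0.10 and 0.21 ± 0.12 (adjusted p = 0.759 and 0.233). Rara and Rarg, the other retinoic acid receptors, differed by -0.04 ± 0.11 and -0.01 ± 0.14 (adjusted p = 0.855 and 0.985). Nr2f6, of the same group as Nr2f2, differed by -0.21 ± 0.13 (adjusted p = 0.266). With the mean of its tested probe sets Nr2f6 was called (-0.31, adjusted p = 0.0177).

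**Figure D3:**
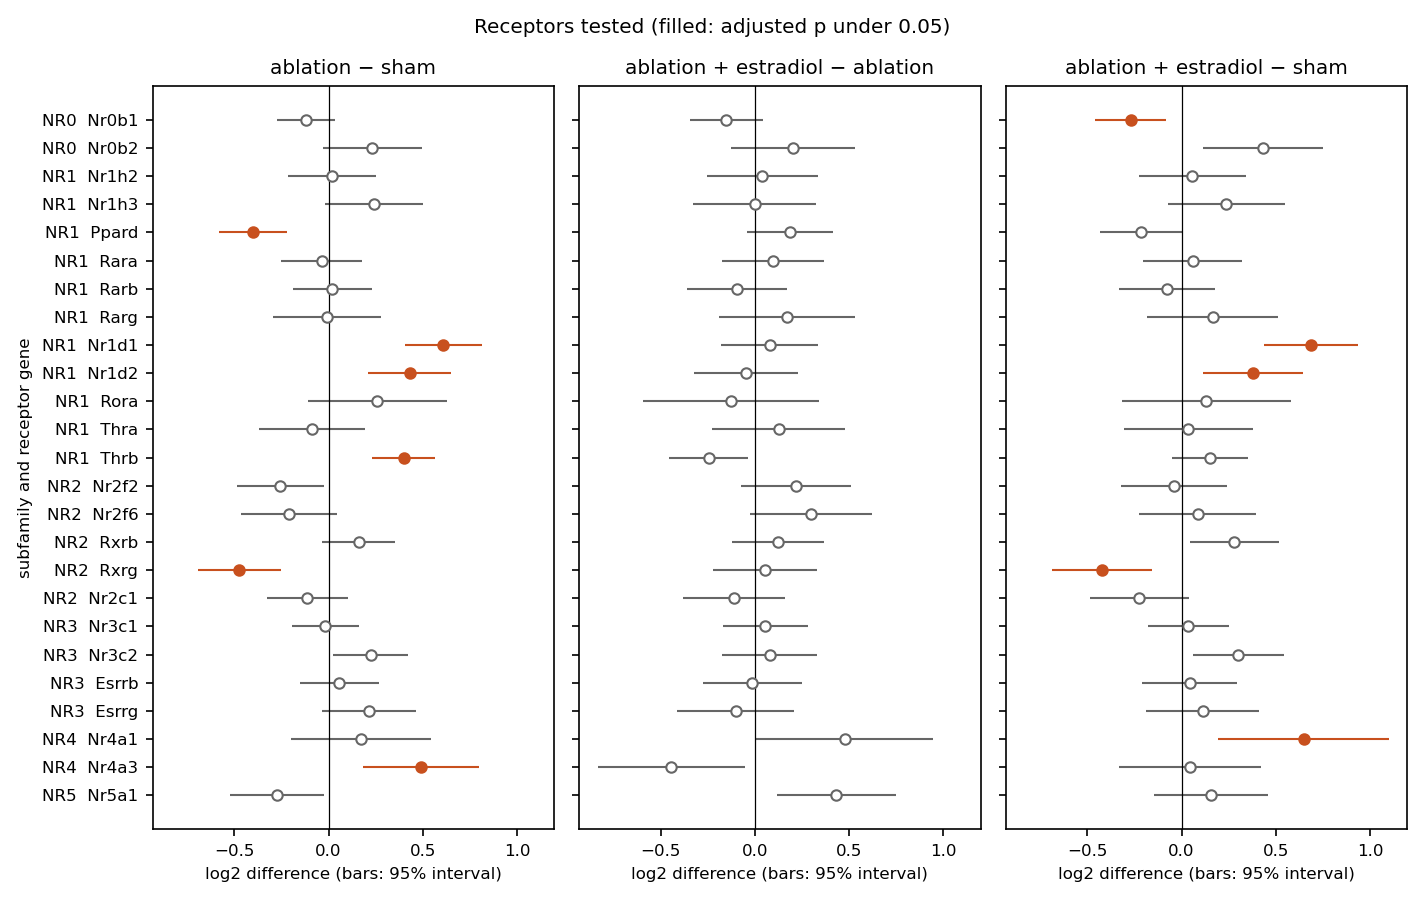
Log2 difference of each of the 25 tested receptors with its 95% interval in the 3 comparisons, grouped by subfamily; filled points have a limma adjusted p under 0.05. There are 6 filled points for ablation against sham, 0 for estradiol plus ablation against ablation and 5 for estradiol plus ablation against sham, which share arrays pairwise.

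Estradiol plus ablation against ablation asks whether estradiol altered receptor transcripts once testicular hormones were suppressed. With limma 0 of 25 receptors were called, beside 3.46% of all tested genes, and 4 had an unadjusted p under 0.05 (13.1% of all tested genes did). The differences ran from -0.45 to 0.48 with a median of 0.06, beside -0.02 over all genes tested. The smallest adjusted p was that of Nr5a1. Its estradiol arrays ran from 1.54 over a median of 2.04 to 2.43, and 5 of 6 lay above every ablation array. The difference was 0.43 ± 0.16, or 1.35-fold (adjusted p = 0.109, 95% interval 0.11 to 0.75). It was called after quantile normalization (0.49, adjusted p = 0.0366), with only these 2 groups in the fit (adjusted p = 0.0328), with sham limited to its 4 arrays labelled as irradiated testes (adjusted p = 0.0226) and without estradiol array 3 (0.53, adjusted p = 0.0497). The second Nr5a1 probe set, above the 40th percentile in 11 arrays, gave 2.06 ± 0.89 (adjusted p = 0.216).

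The other members with an unadjusted p under 0.05 were Thrb, Nr4a3 and Nr4a1. Thrb ran from -0.11 over a median of 0.22 to 0.51 in estradiol arrays, its median between those of the other groups, with a difference from ablation of -0.25 ± 0.10 (adjusted p = 0.193). Nr4a3 ran from -2.58 over -1.46 to -1.17, a difference of -0.45 ± 0.19 (adjusted p = 0.212). Nr4a1 ran from 0.06 over 0.58 to 2.25, a difference of 0.48 ± 0.23 (adjusted p = 0.294), and its highest value was that of estradiol array 6. Nr1d1 and Nr1d2 differed from ablation by 0.08 ± 0.13 and -0.05 ± 0.14 (adjusted p = 0.819 and 0.904). The second Nr1d2 probe set gave -0.19 ± 0.14 (adjusted p = 0.528). The third, above the 40th percentile in 10 arrays and not the one that represents the gene, passed the threshold with the opposite sign (0.86 ± 0.26, adjusted p = 0.0367). For Nr3c1 the difference was 0.06 ± 0.11, with a 95% interval of -0.17 to 0.28. In the estradiol arrays the summed Leydig markers had a median of 5.90 (5.11 to 6.15), Sertoli markers 6.89 (6.01 to 7.13), spermatogonial markers 1.43 (1.25 to 1.86) and spermatid markers 0.68 (0.43 to 0.83), and their part was not tested. Taken singly, 3 of the 7 Leydig markers were lower than in ablation arrays and 0 higher at a limma adjusted p under 0.05. A difference that misses the threshold with 6 against 11 arrays does not show that the levels were alike.

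Estradiol plus ablation against sham had 5 of 25 receptors called with limma, 3 higher and 2 lower. That is 20%, beside 17.2% of all tested genes (5.28% higher and 11.9% lower). The split of 3 higher and 2 lower became 6 and 0 after quantile normalization and 5 and 1 after each array was centred on its median. Nr1d1 ran from 0.91 over a median of 1.25 to 1.63 in estradiol arrays, and 5 of 6 lay above every sham array. Its difference was 0.69 ± 0.12, or 1.61-fold (adjusted p = 7.59e-05), and it was called in all 31 fits that left out an array (adjusted p up to 0.000756). The sham arrays also serve the comparison with ablation, so the calls of Nr1d1 in both are not independent.

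The other 4 calls of this comparison were close to the threshold and each was lost without single arrays. Rxrg ran from -0.95 over a median of -0.50 to -0.34, a difference from sham of -0.42 ± 0.13 (adjusted p = 0.0234), lost without estradiol array 1 (-0.38, adjusted p = 0.0661) or 3 (-0.35, adjusted p = 0.094). The second Rxrg probe set gave 0.11 ± 0.16, of opposite sign (adjusted p = 0.742), and the mean of both was not called (-0.16, adjusted p = 0.337). Nr0b1 ran from 1.44 over 1.61 to 1.74, and all 6 arrays lay below the sham mean, a difference of -0.27 ± 0.09 (adjusted p = 0.044). It was lost without sham array 2, 8, 9, 11, 12, 13 or 14 or estradiol array 2, 5 or 6 (adjusted p up to 0.117). It was lost as well after quantile normalization (-0.19, adjusted p = 0.0611) and with only the sham arrays labelled as control (-0.18, adjusted p = 0.216). With the replicate number as a block in the fit, the Nr0b1 difference was -0.16 and was not called (adjusted p = 0.407). Nr1d2 ran from 2.01 over 2.17 to 2.54, a difference of 0.38 ± 0.13 (adjusted p = 0.0445). It was lost without sham array 3, 4, 6, 8, 9, 10, 12 or 13 or estradiol array 1, 2 or 4 (adjusted p up to 0.135). With sham limited to the arrays labelled as irradiated it was 0.28 (adjusted p = 0.413). The second Nr1d2 probe set gave 0.28 ± 0.13 (adjusted p = 0.176) and the third 0.37 ± 0.25 (adjusted p = 0.373). The mean of the Nr1d2 probe sets was not called (0.34, adjusted p = 0.0785). Nr4a1 differed by 0.65 ± 0.22 (adjusted p = 0.0444), and without estradiol array 6 by 0.35 (adjusted p = 0.284). It was also lost without sham array 1, 2, 4, 8, 9, 10, 11 or 13 or estradiol array 4 or 5. With the replicate number as a block, the Nr4a1 difference was 0.52 and was not called (adjusted p = 0.117). Nr0b2, the repressor SHP, which like Nr0b1 lacks a DNA-binding domain, had a difference of 0.43 ± 0.16 (adjusted p = 0.0568), with all 6 estradiol arrays above the sham mean. It was called in 8 of 45 alternatives, among them after quantile normalization (0.48, adjusted p = 0.0251), without sham array 9 (adjusted p = 0.0378) and without estradiol array 2 (adjusted p = 0.035) or 6 (adjusted p = 0.0445). Nr3c2 had a difference of 0.30 ± 0.12 (adjusted p = 0.0884) and was called after quantile normalization (0.37, adjusted p = 0.011), after centring (0.34, adjusted p = 0.0391) and with array weights (0.33, adjusted p = 0.0438). Rxrb (0.28 ± 0.12, adjusted p = 0.107) was called after quantile normalization (0.34, adjusted p = 0.0358).

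Nuclear receptors act with coregulators, which pass their signal to chromatin, and with chaperones, which hold steroid receptors ready for their ligand. Of 23 tested coregulators, 2 rose and 0 fell with ablation, at a median of 0.01, beside 22.1% of all tested genes called. They were Kdm1a, a histone demethylase (0.30 ± 0.09, limma adjusted p = 0.0114), and Med1, the Mediator subunit that binds receptors (0.25 ± 0.08, adjusted p = 0.0294). With estradiol added to ablation, limma called 0 of 23, beside 3.46% of all tested genes. Against sham, the estradiol group had 1 higher (Nrip1, a corepressor, 0.38 ± 0.13) and 2 lower (Sra1 and Ncoa7, both -0.52), beside 17.2% of all tested genes called. Of 8 receptor chaperones, 1 fell and 0 rose with ablation, at a median of 0.05. It was Fkbp5, which slows steroid receptors and is itself induced by androgens and glucocorticoids (-1.01 ± 0.08, adjusted p = 1.12e-12). It was lower in the estradiol group than in sham as well (-0.95 ± 0.09), while Fkbp4 (0.44 ± 0.13) and Stip1 (0.32 ± 0.11) were higher.

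Of 13 tested clock genes, among which the Rev-erb receptors are not counted, 2 rose and 1 fell with ablation, at a median of 0.21. The share called was near that of all tested genes, 22.1%. Npas2, an activator of the clock, fell (-0.79 ± 0.09, adjusted p = 1.77e-08). Cry1, a repressor of the clock (0.39 ± 0.11, adjusted p = 0.00986), and Bhlhe41, another repressor (0.57 ± 0.16, adjusted p = 0.0116), rose. Dbp, an output gene of the clock, had a difference of 0.21 ± 0.13 and Per2, a core repressor, one of 0.03 ± 0.11 (adjusted p = 0.273 and 0.905). With estradiol added, Per3 fell (-1.22 ± 0.22, adjusted p = 0.00028) and no other clock gene was called, beside 3.46% of all tested genes. The labels used here give no time of day for the tissues.

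Textbook target genes of these receptors were grouped into lists, some of which also hold a receptor or share genes. The lists were chosen with earlier results of these data known. Their counts beside the background are therefore descriptive and do not test the activity of a receptor. In the list of PPAR targets, genes of fatty acid uptake and oxidation, 6 of 10 tested fell with ablation and 0 rose, at a median of -0.64. They included the fatty acid carrier Cd36 (-2.13 ± 0.15), the lipase inhibitor Angptl4 (-1.58 ± 0.10) and Hadha (-0.77 ± 0.08), an enzyme of beta-oxidation. In the list of LXR targets, genes of cholesterol export and fat synthesis, 5 of 10 fell and 0 rose, at a median of -0.30. They included Lpcat3 (-1.12 ± 0.14), a phospholipid enzyme, and the cholesterol exporters Abcg1 (-0.48 ± 0.08) and Abca1 (-0.39 ± 0.10). In the list of retinoic acid targets 4 of 7 fell and 0 rose, at a median of -0.30, led by Rarres2 (-0.99 ± 0.10), a chemoattractant, Crabp2 (-0.81 ± 0.11), which carries retinoic acid, and Tgm2 (-0.51 ± 0.08). Beside these counts, 12.8% of all tested genes fell and 9.24% rose. The part of the cell type marker shifts in these and the following target lists was not tested.

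The lists of steroid and thyroid hormone receptor targets are read beside the same background, 12.8% of all tested genes lower and 9.24% higher. Of 11 tested Nr5a1 targets, 7 fell and 3 rose with ablation, at a median of -0.68, led by Insl3, Cyp17a1 and Cyp11a1 with differences of -4.49, -2.20 and -1.91. The 3 that rose were the Leydig cell genes Lhcgr (0.35 ± 0.11) and Hsd3b1 (0.39 ± 0.13) and the inhibin subunit Inha (0.41 ± 0.10). Of the 7 Leydig markers above, 6 stand in this list too, and the part of Leydig cell content in it was not tested. Of 10 estrogen receptor targets, 6 fell and 0 rose, at a median of -0.38, among them Igf1 (-2.67 ± 0.10), Greb1 (-3.10 ± 0.21) and Cxcl12 (-1.14 ± 0.09). Of 10 glucocorticoid receptor targets, 3 fell and 0 rose, at a median of -0.08: Fkbp5, the metallothionein Mt2A (-0.56 ± 0.09) and Errfi1 (-0.46 ± 0.13). Of 5 thyroid hormone targets 1 fell, Me1 (-0.31 ± 0.10).

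With estradiol added to ablation, 3 of 10 estrogen receptor targets rose and 0 fell: Greb1 (2.97 ± 0.26), Myc (0.92 ± 0.15) and Igf1 (0.51 ± 0.13), although neither estrogen receptor passed the filter. Of the Nr5a1 targets 3 of 11 fell and 0 rose, namely Cyp17a1 (-1.85 ± 0.14), Insl3 (-1.88 ± 0.23) and Cyp11a1 (-0.56 ± 0.13), beside the difference of 0.43 for Nr5a1 that was not called. In each of the PPAR and retinoic acid lists 1 gene rose and 0 fell, Angptl4 (0.72 ± 0.12) and Crabp2 (0.72 ± 0.14). In the LXR list 0 of 10 were called. In the glucocorticoid list Dusp1, a phosphatase, rose (0.96 ± 0.26) and Klf9 fell (-0.46 ± 0.13). Klf9 and Nrgn (-1.09 ± 0.34) were the 2 of 5 thyroid hormone targets that fell. Beside these counts, 2.73% of all tested genes fell and 0.729% rose.

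**Figure D4:**
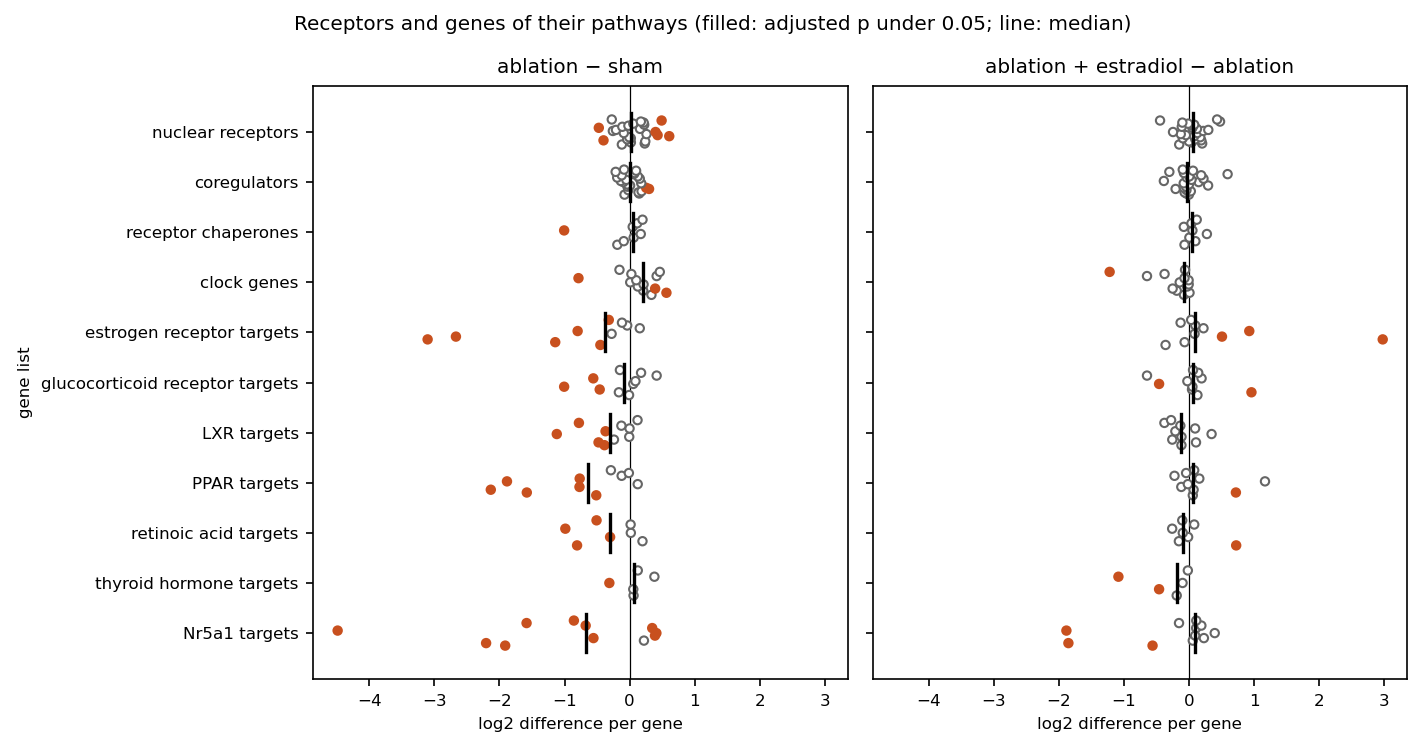
Log2 difference of each tested receptor and of each tested gene in 10 lists of coregulators, chaperones, clock genes and receptor targets, for ablation against sham and for estradiol plus ablation against ablation; filled points have a limma adjusted p under 0.05 and black lines are medians. The receptors lie between -0.47 and 0.61 with ablation, while target genes reach -4.49.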

How the data were processed

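Total RNA of whole rat testes was labelled and hybridised to Affymetrix rat genome arrays. Per the submitters' processing notes the signals were made with MAS5, and the deposited values are on a log scale, read as log2 because the base, the MAS5 version and the scaling are not given in the sources used here. Values were used as deposited. The receptor values of the estradiol arrays carry fewer decimals than those of the sham and ablation arrays, and the reason was not tested. Array medians lay between -1.44 and -1.24. Of 31099 probe sets, 57 array controls were dropped. Testing required a probe set to exceed the 40th percentile of its array in at least 6 arrays (21269 probe sets).

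Differences were tested with limma 3.58.1 in R 4.3.3 on all 31 arrays with 3 groups and a variance trend, 2-sided, with Benjamini-Hochberg adjustment over all tested probe sets. The self-test on simulated data ran beforehand. Background shares use 1 probe set per gene (11379 genes). Receptors called in a comparison are given with their values for that comparison. Esr1, Esr2, Nr3c1, Nr5a1, Nr0b1 and Nr2f2 are given for ablation and sham whatever their p. Of each pathway list up to 3 called genes of smallest adjusted p are named, and further genes (Dbp, Per2 and the Nr5a1 targets that rose) were chosen after their values were seen. The members and lists were chosen with earlier results of these data known. Replicate numbers were not taken as pairs, because they are not stated to mark a shared litter or day. Deviations of same-numbered arrays correlated at -0.09 to 0.05 between ablation and sham (11 pairs). They correlated at -0.18 to 0.06 between estradiol and ablation (6 pairs) and at -0.01 to 0.38 between estradiol and sham (6 pairs, 3 over 0.1). Whether the numbers pair the estradiol and sham arrays was not tested. Alternatives numbered 45, of which 31 left out 1 array. Promoter regions and gene order are from RefSeq GRCr8.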

Additional observations from a re-analysis of the deposited data

Results flagged for a closer look

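Among 27 receptors whose 6 estradiol arrays were compared with each other, 2 had an end value whose gap to the rest passed the 95% critical value of Dixon's test, both in estradiol array 5. Nr2f2 was 2.92 there against 3.30 to 3.49 in the other 5 arrays. Thra was 0.96 there against 0.23 to 0.46. Chance alone sets such a value apart in about 5% of groups. Array 5 is also 1 of the 4 arrays with the narrowest signal range (brightest probe sets 5.50 to 6.19 log2 above the median, against 6.28 to 7.11 in the other arrays), and its part in these values was not tested.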

How the results depend on the processing

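For ablation against sham, 2 receptors were called when sham was limited to arrays labelled as irradiated and 6 when limited to those labelled as control. Leaving out each array in turn gave 6 to 7. For estradiol plus ablation against ablation, 1 was called after quantile normalization, with only the 2 groups compared and with sham limited to arrays labelled as irradiated, and leaving out an array gave 0 to 1. For estradiol plus ablation against sham, in place of 5 there were 2 with no filter, 3 with only the 2 groups compared, 2 with sham limited to those labelled as irradiated, 3 with those labelled as control, 3 without the variance trend, 3 with the replicate block, and 2 to 5 without single arrays. Chosen after the data were seen, 3 were called without the 6 arrays with spermatid RNA and 2 without the 4 arrays of narrowest range. The replicate block left the other comparisons at 6 and 0. The count of 25 tested receptors became 36 at the 30th percentile and 20 at the 60th. No called difference changed sign, among the receptors called, and Nr1d1 was called against sham in all 45 alternatives, for both treatments. The causes of these changes were not tested.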
